A study of Cavia porcellus with 72 samples.

Results

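Hippocampal RNA of the first generation (F1) of guinea pig offspring was compared between prenatal betamethasone and vehicle. Of the 72 samples of the series, 11 were chosen, namely every F1 sample that the labels give as RNA, with 5 from sGC animals and 6 from control animals. Betamethasone is a synthetic glucocorticoid (sGC) that crosses the placenta. Pregnant F0 Dunkin-Hartley females had received it at 1 mg/kg in 3 courses, on gestational days 40 and 41, 50 and 51, and 60 and 61, and control females had received saline vehicle on those days. The F1 animals were therefore exposed in utero themselves. All 11 were females that were not stressed before they were killed on postnatal day 40. Each came from a different mother, so that the 11 libraries stand for separate litters. The F2 and F3 generations, bred through the male line, entered as a comparison near the end of the account.

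The hippocampus carries both corticosteroid receptors, the glucocorticoid receptor (NR3C1) and the mineralocorticoid receptor (NR3C2), which are transcription factors that move to the nucleus when they bind the hormone. Through them, glucocorticoids set the output of hippocampal neurons and the feedback onto the hypothalamic-pituitary-adrenal axis. In the fetus, most maternal cortisol is inactivated in the placenta, an enzyme barrier that betamethasone largely escapes. In guinea pigs, brain development is well advanced at birth.

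Between 14764623 and 19767033 reads had been counted on genes in the control libraries, and between 14814534 and 18997444 in the sGC libraries. The table held 11651 genes, and 11377 had enough reads to be tested. Levels are given as counts per 1000000 reads (CPM) after TMM scaling, which allows a gene to be compared between libraries, but not 1 gene with another, because gene lengths were not used. Replicate sGC 4 stood apart from the other libraries of its group. It was the far value of the 5 sGC libraries in 554 genes (4.87% of those tested), against 59 to 169 genes for each other library of either group by the same gap rule. Replicates sGC 4 and sGC 5 also carry the library numbers 35 and 32, whereas the other 9 F1 libraries are numbered 1 to 9, and no control library has a number near theirs. A batch marked by these numbers and sGC exposure can be told apart only through sGC 1, sGC 2 and sGC 3. The numbers of called, higher and lower members of each gene list were therefore also computed without sGC 4 and sGC 5, and the median log2 fold change of 16 of the 51 lists described then changed sign. Markers of hippocampal neurons were present in every library. The 8 dentate granule neuron markers tested summed to 582 to 686 CPM and the 14 markers of CA1 to CA3 pyramidal neurons to 1417 to 1681 CPM.

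The first question was which genes differed between sGC and control offspring, and by how much. By the quasi-likelihood test of edgeR, adjusted over all genes tested after Benjamini and Hochberg, 237 genes (2.08%) passed an adjusted p of 0.05. Of these, 185 genes (1.63% of those tested) were higher and 52 (0.457%) were lower in sGC animals. The changes were small. On the log2 scale, the genes called higher rose by 0.14 to 0.66 (median 0.25), and those called lower fell by at least 0.14 (median -0.21). Only 3 higher and 4 lower genes changed by more than 1.5-fold. Across all genes tested the median log2 fold change was -0.0055, and the 10th and 90th percentiles were -0.15 and 0.17. All 5 sGC libraries lay above all 6 control libraries in 156 of the 185 genes called higher, against 2.45% of all genes tested. The reverse held in 44 of the 52 genes called lower, against 1.96%. The same libraries had chosen the called genes, so these shares are given as a description.

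The list of called genes was sensitive to single libraries. Without control 1, 2, 3, 4, 5 or 6, 60, 85, 155, 103, 82 and 99 genes were called. Without sGC 1, 2, 3, 4 or 5 the counts were 319, 122, 96, 342 and 56. In these 11 fits every one of the 237 genes kept its sign, 47 of them (45 higher and 2 lower) stayed called throughout, and the largest adjusted p that any of them took was 0.121. Without both sGC 4 and sGC 5, 97 genes were called, 84 higher and 13 lower, and 76 of them were among the 237. In sGC 1 to sGC 3 alone, the mean of all 185 higher genes lay above and that of all 52 lower genes below control, with median differences of 0.22 and -0.21 on the log2 scale. In sGC 4 and sGC 5 these medians were 0.28 and -0.23. Since the libraries of both sets had a part in choosing the genes, these medians and the kept signs are given as a description. In 200 of the 237 genes the groups did not overlap, so that leaving out 1 library could hardly turn the sign.

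**Figure D1:**
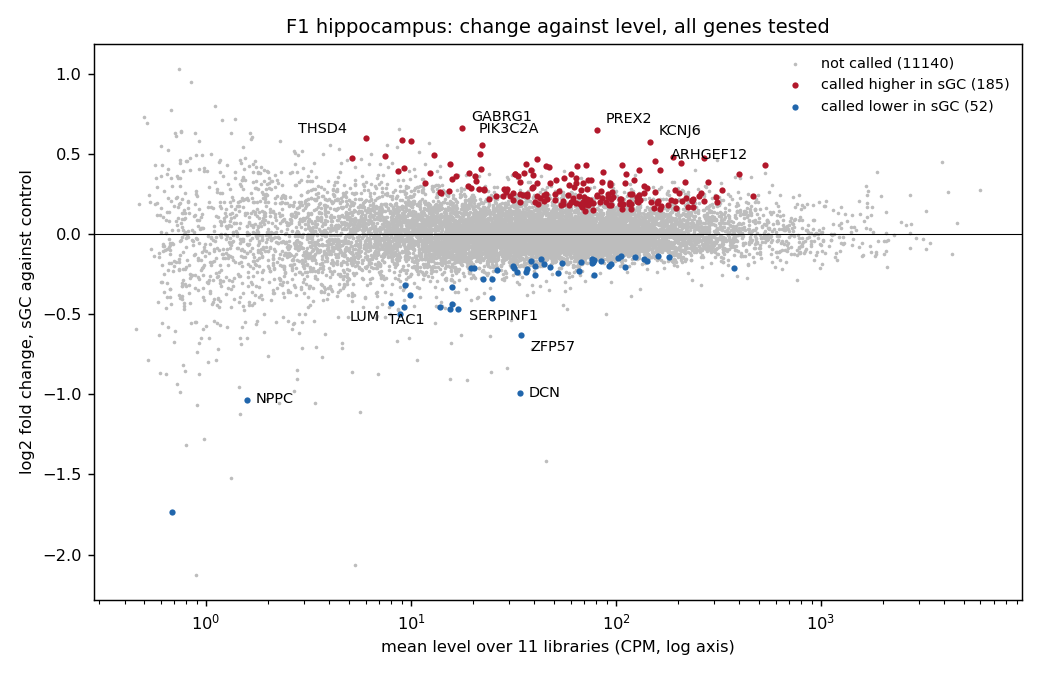
Log2 fold change of sGC against control for each of the 11377 genes tested, plotted against its mean level in CPM over the 11 libraries on a log axis. Red points are the 185 genes called higher and blue points the 52 called lower, and most called genes lie between 0.14 and 0.66 above or within 0.5 below the line at 0.

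The gene with the smallest p was GABRG1, which encodes the gamma-1 subunit of the GABA-A receptor, the chloride channel of fast inhibition. Control libraries held 11.997 to 15.1 CPM (median 14.2) of GABRG1, and sGC 1 to sGC 5 held 22.3, 23.2, 20.7, 21.2 and 23.2 CPM. The lowest sGC library lay above the highest control library and the mean rose from 13.99 ± 1.16 to 22.1 ± 1.14 CPM (SD, n = 6 and 5, log2 fold change 0.66 ± 0.065 (SE), adjusted p = 0.000974). The call held in every one of the 18 alternative fits. No other GABA-A subunit described here passed. GABRA2, which takes part in the benzodiazepine-sensitive receptors, had a log2 fold change of 0.067 (adjusted p = 0.717). Values for GABRA4, GABRA5, GABRB2 and GABRG3 lay between -0.079 and 0.049. GABRD and GABRA3 lay below these, at -0.19 (adjusted p = 0.128) and -0.30 (adjusted p = 0.273), with groups that overlapped. Of the 9 genes of GABA synthesis and transport, none passed, and GAD1, which makes GABA, measured 273 ± 21.8 CPM in control and 269.6 ± 42.1 CPM in sGC animals (adjusted p = 0.931).

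Among glutamate receptors, 1 of the 12 NMDA and metabotropic receptor genes tested was called, and it was higher (1.63% of all genes were). GRM5, the postsynaptic metabotropic receptor mGluR5, measured 49.4 to 61.4 CPM (median 55.9) in control and 79.5, 76.96, 78.2, 64.02 and 74.5 CPM in sGC 1 to sGC 5. The odd library sGC 4 was the lowest of the 5 and still above every control, and the change was log2 fold change 0.42 ± 0.069 (SE), adjusted p = 0.0102. GRIN2A, an NMDA receptor subunit, reached 0.27 ± 0.068 but missed the threshold (adjusted p = 0.063). ADARB1, the enzyme that edits the RNA of AMPA receptor subunits, rose from 62.02 ± 4.98 to 83.5 ± 9.93 CPM (log2 fold change 0.43 ± 0.075 (SE), adjusted p = 0.0148), with all 5 sGC libraries above control. The AMPA and kainate receptor genes themselves showed no call in 21 tested, and their median was -0.00053.

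Genes of synaptic adhesion and structure were among those called higher. Synaptic adhesion genes gave 4 higher calls and 0 lower in 43 tested, beside the 1.63% and 0.457% of all genes, and 29 of the 43 had values above 0. CADM2, an immunoglobulin-type adhesion molecule of axons and synapses, ranged over 82.6 to 100.3 CPM (median 92.5) in control and measured 118, 129, 124, 118 and 131 CPM in sGC 1 to sGC 5 (log2 fold change 0.43 ± 0.052 (SE), adjusted p = 0.00212). The groups did not overlap, and CADM2 stayed called in all 18 alternatives. PTPRD, a receptor phosphatase that organises presynaptic terminals, rose by 0.21 (adjusted p = 0.0233), and TENM1, a teneurin, by 0.32 (adjusted p = 0.023). NRXN3, a presynaptic neurexin, stood at 27.4 to 36.3 CPM (median 30.4) in control and at 44.00, 47.7, 43.4, 32.2 and 44.1 CPM in sGC animals, so that 4 sGC libraries lay above control and sGC 4 within it (log2 fold change 0.43 ± 0.094 (SE), adjusted p = 0.0343). Without sGC 4 and sGC 5 its adjusted p was 0.0106, and 5 of the 43 adhesion genes were called higher.

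On the postsynaptic side, 3 of 26 scaffold genes were called, all higher (1.63% of all genes were), and 16 of the 26 had values above 0 (48.3% of all genes did). They were HOMER2, which ties metabotropic glutamate receptors to calcium stores (0.32, adjusted p = 0.0191), LRRC7 or densin (0.32, adjusted p = 0.0199), and SHANK2, a master scaffold of the postsynaptic density (0.20, adjusted p = 0.0447). On the presynaptic side, RAB3C, a GTPase of synaptic vesicles, was the 1 member called of 44 vesicle and release genes (2.27% called higher, beside 1.63% of all genes). It measured 119.6 to 146.96 CPM (median 133) in control and 184, 193.8, 184, 148 and 203 CPM in sGC 1 to sGC 5 (log2 fold change 0.45 ± 0.076 (SE), adjusted p = 0.0109), again with sGC 4 lowest but above control. RIMBP2, which links calcium channels to the release site and is on none of the lists, measured 52.7 to 56.3 CPM (median 52.9) in control, with 5 of those libraries within 1 CPM of each other. The sGC libraries held 71.7, 66.1, 71.1, 62.9 and 74.05 CPM (log2 fold change 0.37 ± 0.045 (SE), adjusted p = 0.00212), none of them within the control range. SYP, a general vesicle protein, gave a value of -0.11 (adjusted p = 0.472), and the median of the vesicle list was -0.0088 (0.021 without sGC 4 and sGC 5). No scaffold gene was called without sGC 4 and sGC 5, although 21 of the 26 then had values above 0. HOMER2, LRRC7, SHANK2, TENM1, PTPRD and NRXN3 each lost the call when 1 library was left out, at adjusted p-values of up to 0.0541, 0.0542, 0.0939, 0.0568, 0.0541 and 0.0826, while GRM5, CADM2, RAB3C and RIMBP2 did not lose it.

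**Figure D2:**
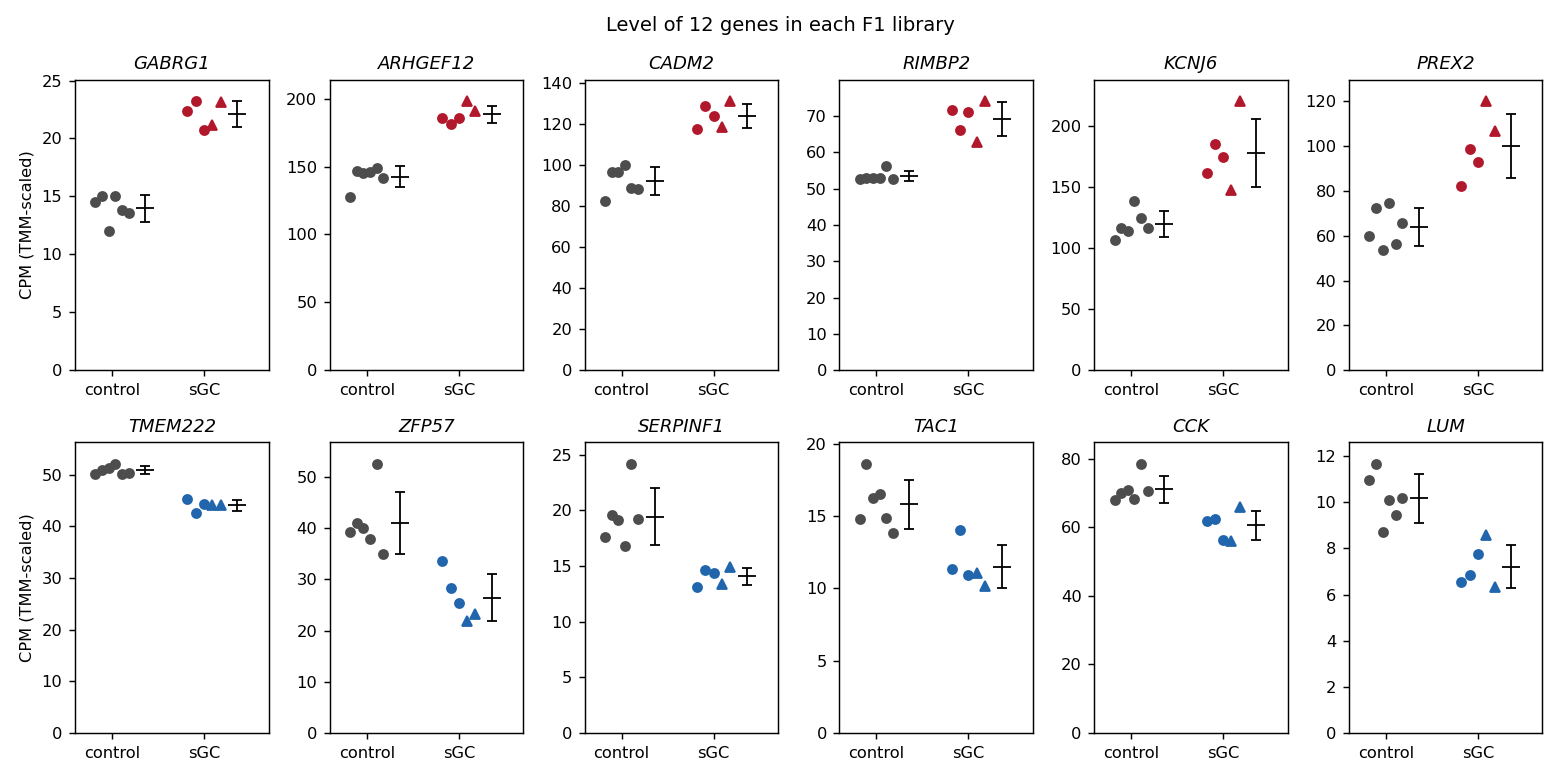
Level in CPM of 6 genes called higher (upper row) and 6 called lower (lower row) in each F1 library, on axes that start at 0, with grey points for 6 control and coloured points for 5 sGC libraries. Triangles mark sGC 4 and sGC 5, bars give mean and SD, and the groups are separate in every plot except that of TAC1, where 1 sGC library lies within the control range.

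Potassium channels, which set resting potential and firing, gave 5 higher calls and 1 lower in 62 tested, beside 1.63% and 0.457% of all genes, and 38 of the 62 had values above 0, as did 48.3% of all genes. KCNJ6 encodes GIRK2, a channel opened by inhibitory G protein-coupled receptors. Control libraries held 107 to 138 CPM (median 116) of it, against 161, 185, 174, 148 and 219.9 CPM in sGC 1 to sGC 5, all above control but spread over a wider range than control (log2 fold change 0.57 ± 0.09 (SE), adjusted p = 0.0082). KCNA2 and KCNA3, delayed rectifiers of the Kv1 family, rose by 0.23 (adjusted p = 0.0233) and 0.24 (adjusted p = 0.0497). KCND3, an A-type channel, rose by 0.18 (adjusted p = 0.0256), and KCNQ3, a subunit of the M-current, by 0.40 (adjusted p = 0.031). KCNJ4, an inward rectifier, fell by 0.26 (adjusted p = 0.0466), and sGC 1, at 78.1 CPM, lay within its control range of 73.5 to 91.2 CPM. Of 28 sodium, calcium and HCN channel genes, CACNA1I, a T-type calcium channel, was the 1 called (0.24, adjusted p = 0.0491), beside 1.63% of all genes called higher. KCNJ6 alone of these 7 channels stayed called in all 11 fits without 1 library. The other 6 reached adjusted p-values between 0.0624 and 0.113 in their least favourable fit. When sGC 4 and sGC 5 were left out, 2 potassium channels were called higher and 0 lower, and 41 of 63 lay above 0.

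ARHGEF12, a guanine nucleotide exchange factor downstream of G proteins, measured 127.5 to 149 CPM (median 145.8) in control and 186, 181.4, 186, 198 and 191.02 CPM in sGC 1 to sGC 5, with control 1 as the low value of its group (log2 fold change 0.40 ± 0.044 (SE), adjusted p = 0.00158). PREX2, an activator of Rac, had the second largest rise of all genes named here. It held 53.7 to 74.7 CPM (median 62.9) in control and 82.1, 98.8, 92.9, 120.0 and 107 CPM in sGC animals (log2 fold change 0.65 ± 0.10 (SE), adjusted p = 0.00807), and sGC 4 was the highest library. Both genes had sGC libraries wholly above control and were called in every alternative. ARHGAP42, a GTPase-activating protein, and DOCK8, an activator of CDC42, rose by 0.58 and 0.45, with adjusted p-values of 0.0291 and 0.0337. Each of them lost its call in some fit without 1 library, at up to 0.0728 and 0.0857. RND1, a GTP-binding protein that loosens actin fibres, was instead lower, with 41.2 to 45.1 CPM (median 43.3) in control and 36.04, 34.7, 38.8, 38.2 and 33.7 CPM in sGC animals (log2 fold change -0.26 ± 0.047 (SE), adjusted p = 0.0187), and lost its call without sGC 5 (adjusted p = 0.0552).

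Further genes with small p-values belonged to signalling and the cell surface. PIK3C2A, a class II phosphoinositide 3-kinase of membrane traffic, measured 16.9 to 20.8 CPM (median 17.8) in control and 28.8, 25.1, 28.5, 26.9 and 24.7 CPM in sGC 1 to sGC 5 (log2 fold change 0.55 ± 0.067 (SE), adjusted p = 0.00212). NF1, or neurofibromin, which turns off Ras, measured 31.2 to 38.03 CPM (median 35.8) in control and 44.4, 46.2, 49.8, 50.2 and 52.5 CPM in sGC animals (log2 fold change 0.47 ± 0.058 (SE), adjusted p = 0.00212). ITGB8, the integrin subunit that activates latent TGF-beta and the 1 higher call of 67 laminin, integrin and protease genes (1.63% of all genes were called higher), measured 120.0 to 128.3 CPM (median 123.2) in control and 150.0, 150.4, 139, 161 and 158 CPM in sGC animals (log2 fold change 0.30 ± 0.04 (SE), adjusted p = 0.00434). In all of these genes the groups were separate, and none lost its call in an alternative fit. THSD4, a matrix protein of the ADAMTS-like family, was among the larger changes at 0.60 ± 0.13 (adjusted p = 0.0307), but at low levels of 4.17 to 6.61 CPM in control and 6.36 to 8.48 CPM in sGC animals, which overlapped.

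Transcription and chromatin genes made up another part of the called set. Of 74 enzymes of histone methylation and acetylation, 5 were called higher (1.63% of all genes were) and 0 lower, and 19 had an unadjusted p below 0.05 in the higher direction against 0 in the lower (10.5% and 9.06% of all genes did). KAT6A, a histone acetyltransferase, measured 31.6 to 38.8 CPM (median 34.1) in control and 46.2, 44.03, 42.6, 46.1 and 45.6 CPM in sGC 1 to sGC 5, with every sGC library above control (log2 fold change 0.37 ± 0.053 (SE), adjusted p = 0.00522). The histone methyltransferases ASH1L (0.26, adjusted p = 0.0191), WHSC1L1 or NSD3 (0.19, adjusted p = 0.0285), KMT2A (0.27, adjusted p = 0.0421) and KMT2C (0.32, adjusted p = 0.0471) also rose. Of 53 chromatin remodelling and DNA methylation genes, BAZ2B, a bromodomain protein (0.30, adjusted p = 0.0141), and ATRX, a remodeller that deposits histone H3.3 (0.25, adjusted p = 0.0286), were called higher, and none was lower. Zinc finger genes of the ZNF and ZBTB families had 6 higher calls (4.17% of those tested, beside 1.63% of all genes) and 0 lower, with 95 values above 0 and 49 below. Of the 6, ZNF106 had the smallest adjusted p (0.28, 0.0165). The other 5 were ZBTB41, ZBTB44, ZNF292, ZNF704 and ZNF462, with log2 fold changes from 0.20 to 0.39. KAT6A and BAZ2B stayed called in all 11 fits without 1 library, whereas the largest adjusted p of ASH1L, WHSC1L1, KMT2A, KMT2C, ATRX and ZNF106 was 0.0541, 0.067, 0.0876, 0.102, 0.0675 and 0.05. Leaving out sGC 4 and sGC 5, 1 histone enzyme (KAT6A), 1 chromatin gene (ATRX) and 1 zinc finger gene (ZNF106) were called higher, and 44 of 74, 36 of 53 and 93 of 145 lay above 0. BAZ2B lost its call there.

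The general regulators NIPBL, which loads cohesin onto chromatin, and MED13, a subunit of the Mediator kinase module, showed narrow ranges. NIPBL held 45.6 to 47.4 CPM (median 46.1) in control and 57.03, 54.8, 54.1, 53.1 and 56.2 CPM in sGC animals (log2 fold change 0.25 ± 0.035 (SE), adjusted p = 0.00522). MED13 held 29.4 to 33.8 CPM (median 30.5) in control and 43.6, 42.3, 36.6, 39.5 and 40.8 CPM in sGC animals (log2 fold change 0.38 ± 0.054 (SE), adjusted p = 0.00522). ZFHX4, a homeodomain and zinc finger transcription factor, rose from 7.32 ± 0.427 to 11.00 ± 0.741 CPM (log2 fold change 0.58 ± 0.073 (SE), adjusted p = 0.00212), and NFAT5, the transcription factor of the response to hypertonic stress, from 75.97 ± 4.62 to 99.3 ± 7.25 CPM (log2 fold change 0.39 ± 0.054 (SE), adjusted p = 0.00522). All sGC libraries exceeded all control libraries in each of these 4 genes, which were called in every alternative.

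Of 17 circadian clock genes, 2 were called and both were higher, beside 1.63% of all genes. RORA, a nuclear receptor that activates the clock gene BMAL1, ranged over 26.05 to 29.7 CPM (median 28.4) in control and measured 33.3, 36.9, 38.1, 36.4 and 38.4 CPM in sGC 1 to sGC 5 (log2 fold change 0.37 ± 0.05 (SE), adjusted p = 0.00434). CLOCK, the partner of BMAL1, held 34.4 to 37.1 CPM (median 35.97) in control and 43.4, 41.8, 46.6, 43.2 and 44.2 CPM in sGC animals (log2 fold change 0.29 ± 0.042 (SE), adjusted p = 0.00522). The groups were separate for both genes and the calls held in all alternatives. The median over the 17 genes was -0.015. RORB, a relative of RORA, had a log2 fold change of 0.35 but did not pass (adjusted p = 0.153), and the remaining members lay between -0.11 (BHLHE40) and 0.12 (PER3). The sources used here do not give the clock time of death.

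Among the genes through which corticosteroids act, neither receptor was called. NR3C1 measured 89.8 to 98.96 CPM (median 94.4) in control and 107, 101, 103, 115 and 99.7 CPM in sGC 1 to sGC 5, so that the groups did not overlap, but its change of 0.15 ± 0.045 missed the threshold (adjusted p = 0.086). NR3C2 measured 136 ± 6.09 CPM in control and 139 ± 9.40 CPM in sGC animals (adjusted p = 0.718). FKBP5, a cochaperone that lowers the affinity of the glucocorticoid receptor and a gene that the receptor induces, measured 10.9 to 13.02 CPM (median 11.9) in control and 12.1, 11.1, 14.4, 12.2 and 14.4 CPM in sGC animals (adjusted p = 0.483). The 1 call in 24 genes of corticosteroid signalling (1.63% of all genes were called higher) was NCOA2, a coactivator of steroid receptors, which rose by 0.19 ± 0.038 (adjusted p = 0.0256) and lost the call at up to 0.0632 when 1 library was left out. Of the 24, 7 had an unadjusted p below 0.05 in the higher direction and 5 in the lower (10.5% and 9.06% of all genes did). CRHR2, a receptor of the corticotropin-releasing hormone family, had the highest log2 fold change on the list, with 23.8 to 29.5 CPM (median 25.8) in control and 28.03, 32.2, 29.3, 39.4 and 38.1 CPM in sGC 1 to sGC 5, and sGC 1 and sGC 3 within the control range (log2 fold change 0.35 ± 0.093 (SE), adjusted p = 0.0665). No gene of corticosteroid signalling was called without sGC 4 and sGC 5. Of 25 glucocorticoid target genes none was called, 9 had values above 0 and 16 below, and ZBTB16 had the smallest adjusted p (0.18, 0.0662). None of 25 immediate early genes was called, with 4 values above 0 and 21 below and a median of -0.092, and JUN was the member with the smallest adjusted p (-0.18, 0.177).

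**Figure D3:**
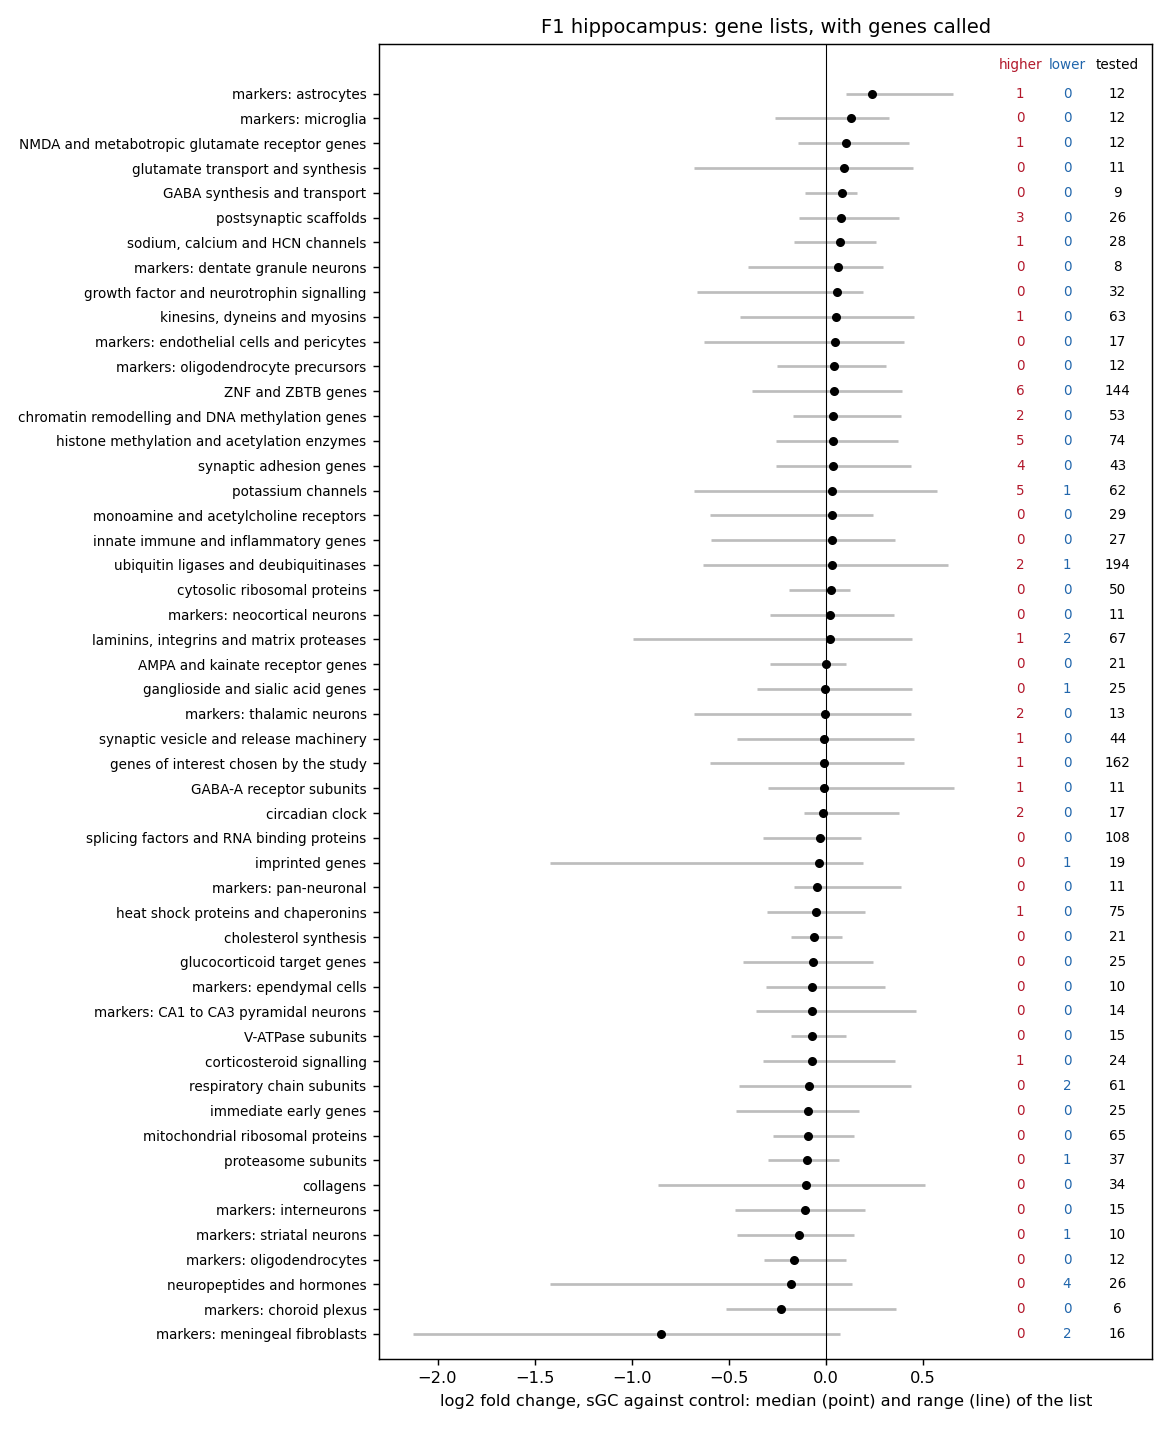
Median (point) and range (line) of the log2 fold changes of sGC against control for the members tested of 51 gene lists, ordered by median, with the numbers called higher, called lower and tested at the right. The astrocyte markers have the highest median, 0.24, and the meningeal fibroblast markers the lowest, -0.85, while the lists with most higher calls (zinc fingers, potassium channels, histone enzymes) have medians between 0.033 and 0.04.

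Among the genes called lower, neuropeptides and hormones stood out by count, with 4 of 26 called lower beside 0.457% of all genes, and 22 of the 26 had values below 0 (median -0.18). TAC1, the precursor of substance P, measured 13.8 to 18.6 CPM (median 15.6) in control and 11.3, 14.04, 10.9, 11.03 and 10.1 CPM in sGC 1 to sGC 5, of which sGC 2 alone lay within the control range (log2 fold change -0.46 ± 0.095 (SE), adjusted p = 0.0291). CCK, or cholecystokinin, measured 67.9 to 78.4 CPM (median 70.4) in control and 61.7, 62.4, 56.4, 56.1 and 65.97 CPM in sGC animals, with all 5 below control (log2 fold change -0.23 ± 0.052 (SE), adjusted p = 0.0399). GRP, the gastrin-releasing peptide, measured 78.1 to 84.1 CPM (median 81.02) in control and 72.02, 77.1, 70.3, 65.9 and 72.4 CPM in sGC animals, also without overlap (log2 fold change -0.18 ± 0.041 (SE), adjusted p = 0.0447). NPPC, the precursor of C-type natriuretic peptide, had the largest fall of the 4, but at 1.60 to 2.76 CPM (median 2.01) in control and 1.65, 0.854, 1.09, 0.812 and 0.601 CPM in sGC animals, where few reads stand behind a value (log2 fold change -1.03 ± 0.23 (SE), adjusted p = 0.0399). SST measured 77.3 ± 9.27 CPM in control and 62.97 ± 7.88 CPM in sGC animals and was not called (adjusted p = 0.0926). Each of the 4 calls was lost in most of the 11 fits without 1 library, at adjusted p-values of up to 0.0797 for TAC1, 0.0891 for CCK, 0.0973 for GRP and 0.0932 for NPPC. Without sGC 4 and sGC 5 they were 0.0925, 0.0563, 0.101 and 0.122, so that 0 of the 26 were called, with 22 of 26 below 0 as before. The summed level of 15 interneuron markers overlapped between the groups. It was 984 to 1155 CPM (median 1079) in control and 869.7 to 1124 CPM (median 1067) in sGC animals. Replicate sGC 4, at 869.7 CPM, alone lay below the control range. The interneuron markers had a median log2 fold change of -0.11, 12 of 15 lay below 0 and none was called. TAC1 is also the 1 called member of the 10 striatal neuron markers, whose summed level was 293 to 324 CPM in control and 297 to 309 CPM in sGC animals. The part of the interneuron markers in the lower peptide levels was not tested, and in bulk tissue fewer cells of a type and less RNA per cell cannot be told apart. NTSR1, the main neurotensin receptor, which is no member of the peptide list, fell by 0.47 ± 0.11 (adjusted p = 0.0494) with overlapping groups, and its call was lost at up to 0.121.

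ZFP57, a zinc finger protein that keeps the methylation of imprinted genes and the 1 called of 19 imprinting genes, measured 35.05 to 52.5 CPM (median 39.6) in control and 33.5, 28.4, 25.4, 21.8 and 23.2 CPM in sGC 1 to sGC 5. Control 5 was the high value of its group, sGC 4 and sGC 5 were the lowest 2 libraries, and the groups did not overlap (log2 fold change -0.63 ± 0.12 (SE), adjusted p = 0.0184). Its call was lost without sGC 5 (adjusted p = 0.0541) and without both sGC 4 and sGC 5 (adjusted p = 0.0643, log2 fold change -0.50). The median over the imprinting genes was -0.039 (0.051 without sGC 4 and sGC 5).

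TMEM222, a membrane protein, had the smallest p of the lower genes. Control libraries held 50.1 to 52.1 CPM (median 50.6) and sGC 1 to sGC 5 held 45.3, 42.5, 44.2, 44.1 and 44.1 CPM, in 2 narrow and separate bands (log2 fold change -0.21 ± 0.035 (SE), adjusted p = 0.0109). SERPINF1, the secreted factor PEDF, measured 16.8 to 24.2 CPM (median 19.1) in control and 13.1, 14.6, 14.4, 13.4 and 14.9 CPM in sGC animals (log2 fold change -0.47 ± 0.086 (SE), adjusted p = 0.0187), with control 5 as the high value. These were the 2 lower genes that no left-out library removed, although SERPINF1 had an adjusted p of 0.054 without sGC 4 and sGC 5. Lower genes with separate groups were also FEN1, a nuclease of DNA replication and repair (-0.17), SSU72, a phosphatase of RNA polymerase II (-0.18), PMM1, a phosphomannomutase (-0.22), FSD1 (-0.25), and ST3GAL5, the enzyme that makes the ganglioside GM3 (-0.18). Their adjusted p-values were 0.0248, 0.0261, 0.0291, 0.023 and 0.0312, and they lost the call without 1 library at up to 0.0699, 0.0663, 0.0724, 0.0572 and 0.0852.

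Lists of mitochondrial genes and of proteasome subunits held more values below than above 0, with few single calls. Of 61 respiratory chain subunits, 55 had values below 0 (median -0.089), 25 had an unadjusted p below 0.05 in the lower direction and 0 in the higher, and 2 were called lower, against 9.06% and 0.457% of all genes. The 2 were complex I subunits. NDUFS6 measured 44.2 to 46.3 CPM (median 44.96) in control and 40.2, 39.5, 41.5, 40.9 and 40.2 CPM in sGC 1 to sGC 5 (log2 fold change -0.16 ± 0.035 (SE), adjusted p = 0.0399), and NDUFAB1 fell from 89.4 ± 2.35 to 79.6 ± 3.85 CPM (log2 fold change -0.17 ± 0.039 (SE), adjusted p = 0.0447), with all sGC libraries below control in both. FDX1, the mitochondrial ferredoxin that passes electrons to cytochromes P450 and is not on that list, measured 15.9 to 19.1 CPM (median 17.1) in control and 12.97, 14.3, 13.9, 14.5 and 13.4 CPM in sGC animals (log2 fold change -0.33 ± 0.063 (SE), adjusted p = 0.0203). Mitochondrial ribosomal proteins had 53 of 65 values below 0 and a median of -0.094, and none was called, MRPS31 being closest (-0.21, adjusted p = 0.0577). Proteasome subunits had 30 of 37 values below 0, and PSMA6, a subunit of the core ring, was the 1 called lower (-0.17, adjusted p = 0.0481), beside 0.457% of all genes. Of 15 V-ATPase subunits 12 lay below 0, of 75 heat shock proteins and chaperonins 55, and of 21 cholesterol synthesis genes 17, with DNAJB14 as their single call, which was higher (0.20, adjusted p = 0.0248). Cytosolic ribosomal proteins had 31 of 50 values above 0, a median of 0.024 and no call, but without sGC 4 and sGC 5 all 50 lay below 0 (median -0.14), also with no call. PSMA6 lost its call in all 11 fits, NDUFS6 and NDUFAB1 in 10 of them and FDX1 in 2, at up to 0.103, 0.096, 0.11 and 0.0581. In the absence of sGC 4 and sGC 5, 58 of the 61 respiratory chain subunits lay below 0 (median -0.11), and 1 was called lower. It was neither NDUFS6 nor NDUFAB1, which lost their calls there, as did FDX1 and PSMA6. Of the 65 mitochondrial ribosomal proteins, 55 then lay below 0.

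Matrix genes of the meninges held 2 of the lower calls. Of 67 laminin, integrin and matrix genes, 2 were called lower, beside 0.457% of all genes. They are the small leucine-rich proteoglycans LUM (lumican) and DCN (decorin), which are also on the list of meningeal fibroblast markers. LUM measured 8.72 to 11.7 CPM (median 10.1) in control and 6.55, 6.83, 7.76, 8.59 and 6.34 CPM in sGC 1 to sGC 5, just without overlap (log2 fold change -0.50 ± 0.10 (SE), adjusted p = 0.0258). DCN measured 32.2 to 62.5 CPM (median 42.2) in control and 27.4, 10.2, 20.4, 32.4 and 20.8 CPM in sGC animals, where sGC 4 lay within the control range (log2 fold change -0.995 ± 0.24 (SE), adjusted p = 0.0494). Of 34 collagens none was called, 25 had values below 0, 8 had an unadjusted p below 0.05 in the lower direction and 1 in the higher, and the median was -0.10. The 16 meningeal fibroblast markers tested had a median of -0.85, 15 were below 0, and their summed level was 249.9 to 538 CPM in control and 207 to 320.5 CPM in sGC animals. Control 2 and control 5 had the largest sums, 538 and 474 CPM. The other meningeal markers thus moved with LUM and DCN, and their part in the 2 calls was not tested. Without sGC 4 and sGC 5 the median of the 16 was -1.14 and 2 were called lower. LUM was 1 of these, whereas DCN lost its call. LUM lost its call in 6 of the 11 fits without 1 library (at up to 0.0728) and DCN in 9 (at up to 0.113).

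Markers of glia were compared between the groups as well. All 12 astrocyte markers tested had values above 0, against 48.3% of all genes tested, with a median of 0.24. Their summed level was 9376, 10158, 9296, 10249, 8753 and 11223 CPM in control 1 to control 6, and 10007, 10837, 10847, 15968 and 13263 CPM in sGC 1 to sGC 5. The first 3 sGC libraries thus lay within the control range, and sGC 4 and sGC 5 lay above it. The 1 marker called was SLC4A4, written Slc4a4 in the table, a sodium bicarbonate cotransporter of astrocytes (0.48, adjusted p = 0.0451), and the glutamate transporter SLC1A2 reached 0.45 (adjusted p = 0.0917). Without sGC 4 and sGC 5 these adjusted p-values were 0.0956 and 0.297, and the median of the 12 markers was 0.065, with 10 above 0. Of the 185 genes called higher, 55 were highest in sGC 4, as the astrocyte sum was (sGC 4 was the highest sGC library in 29.3% of all genes), and 61 had sGC 4 and sGC 5 as the 2 highest sGC libraries (16.4% of all genes). ARHGEF12, PREX2, ITGB8, ZNF106, HOMER2, KCNA2, ARHGAP42, DOCK8 and MYO5A were in both sets. In 87.6% of the 185, sGC 1, sGC 2 and sGC 3 each lay above every control library, against 5.1% of all genes. These libraries had a part in choosing the 185 genes, so a high share follows from the choice and is given as a description. The part of the astrocyte markers in the higher calls was not tested. Of 12 oligodendrocyte markers 9 lay below 0 (median -0.16), of 12 microglial markers 9 above 0 (median 0.13), and no member of either list was called. Without sGC 4 and sGC 5, 8 oligodendrocyte markers lay below 0, but 5 microglial markers lay above and 7 below (median -0.064). Markers of oligodendrocyte precursors, endothelial cells and pericytes, choroid plexus, ependymal cells and neocortical neurons, and the pan-neuronal, dentate granule and pyramidal neuron lists, had no call. The 13 thalamic neuron markers included RORA and ADARB1, both called higher, although their median was -0.007 and their sums were 566 to 642 CPM in control and 571 to 643 CPM in sGC animals. Of the 13 blood markers only ALAS2 had enough reads to be tested, with 1.34 ± 0.501 CPM in control and 0.546 ± 0.326 CPM in sGC animals (adjusted p = 0.0811).

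**Figure D4:**
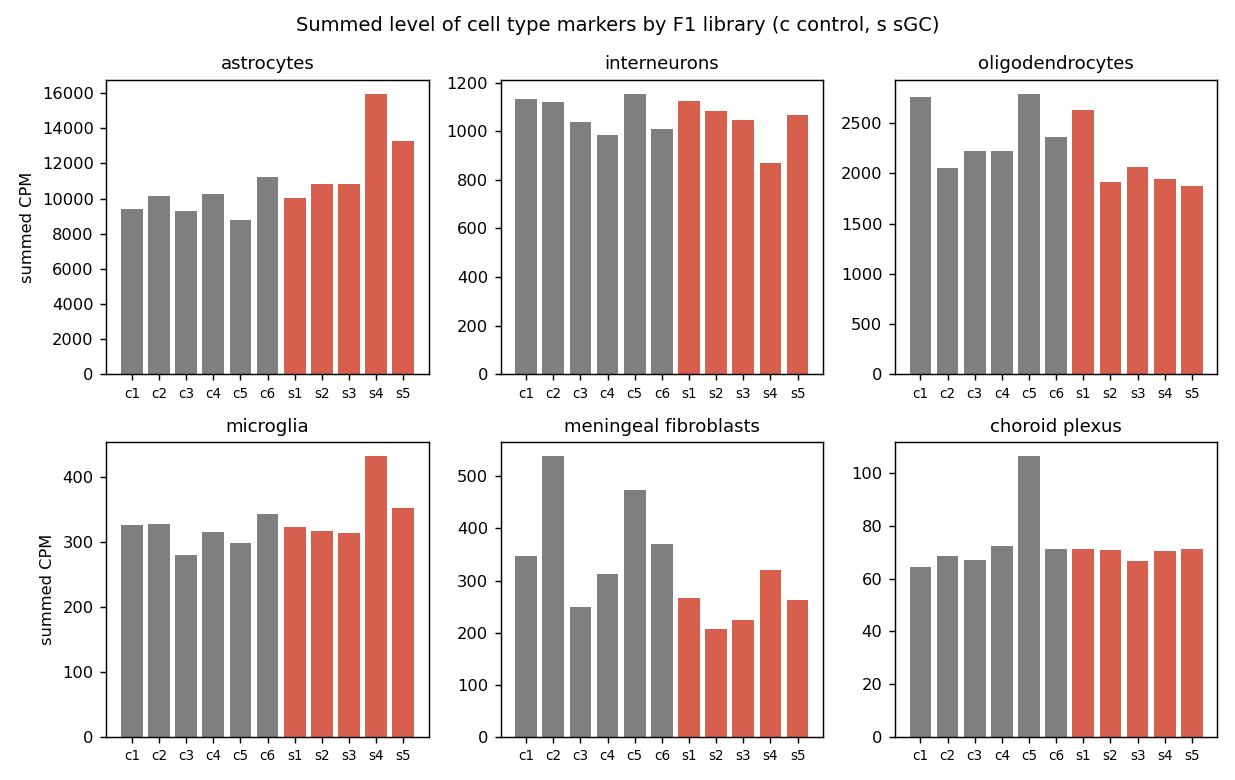
Summed level in CPM of 6 lists of cell type markers in each F1 library, with grey bars for control 1 to control 6 and red bars for sGC 1 to sGC 5, on axes that start at 0. Astrocyte sums of sGC 4 and sGC 5 (15968 and 13263 CPM) exceed every control, and meningeal fibroblast sums of sGC 2 and sGC 3 lie below every control, with 249.9 CPM as the lowest control.

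The remaining lists held few calls, beside 1.63% of all genes called higher and 0.457% called lower. Ubiquitin ligases and deubiquitinases had 2 higher (RNF24 and TRIM33) and 1 lower (FBXL15) call, with 119 values above 0 and 75 below, motor proteins 1 higher of 63, and ganglioside and sialic acid genes 1 lower of 25. Splicing factors and RNA binding proteins (108 tested), monoamine and acetylcholine receptors (29), glutamate transport and synthesis (11), growth factor signalling (32) and innate immune genes (27) had none. Of these, the splicing factors had 39 values above 0 and 69 below, and SRSF3 came closest to a call (-0.14, adjusted p = 0.0786). The splicing factors had 55 values above 0 and 53 below without sGC 4 and sGC 5. The study's table of genes of interest held 199 symbols. The members tested had 76 values above 0 and 86 below (83 and 81 without sGC 4 and sGC 5), and 1 was called, the motor MYO5A, which carries endoplasmic reticulum into dendritic spines. MYO5A measured 418 to 456 CPM (median 427) in control and 486, 485, 475, 564 and 542 CPM in sGC 1 to sGC 5, highest in sGC 4 and sGC 5 (log2 fold change 0.24 ± 0.052 (SE), adjusted p = 0.0342), and was lost without 1 library at up to 0.087. Of the members tested, 22 had an unadjusted p below 0.05 in the higher direction and 10 in the lower. Of all genes tested, 10.5% and 9.06% did. The median of that list was -0.0091. KCNJ6 and NCOA2, both called, are named as genes of interest in the study's text but are not among the symbols of that table, so these counts leave them out.

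The last question was whether the F1 differences appeared in F2 and F3 animals, which have control animals of their own. None of the 237 genes was called in F2. Of the 185 genes higher in F1, 86 (46.5%) had values above 0 in F2, where 49.5% of all genes did, and the median was -0.0074. In F3, 167 of the 185 (90.3%) had values above 0, where 51.8% of all genes did, with a median of 0.078, and 9 were called higher there beside 2.17% of all genes tested. Of the 52 genes lower in F1, 38 (73.1%) had values above 0 in F2, and 19 of the 51 tested in F3 (37.3%). The late library numbers recur in F2 and F3, among sGC libraries only. Without the libraries numbered 32 to 36 in F2 and F3, an alternative chosen after the data were seen, the share of the 185 above 0 was 22.2% in F2 (48.7% of all genes) and 80.5% in F3 (50.9% of all genes). In F3, 3 of the 185 were then called higher, beside 161 of 11338 genes. With the same numbers also left out of F1, 84 genes were called higher, and 11.9% and 67.9% of them lay above 0 in F2 and F3. In F3, 0 of the 84 were called higher.

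Tested as an interaction over all 36 RNA libraries, the sGC effect in F2 differed from that in F1 for 33 of 11390 genes (0.29%), of which 22 were among the 185 higher and 7 among the 52 lower genes. The F1 libraries that had chosen the 237 genes also enter the interactions with F2 and F3. The numbers of these genes among the interaction calls follow in part from that choice and are given as a description. GABRG1 had a log2 fold change of -0.029 in F2 and 0.049 in F3, and the F2 effect lay 0.70 below that of F1 (adjusted p = 0.027). ARHGEF12, PIK3C2A, CADM2, RORA and PREX2 also differed from F2, by -0.38 to -0.61, and TMEM222 and NTSR1 differed in the other direction, by 0.24 and 0.71. Between F3 and F1 no gene passed in edgeR's quasi-likelihood test, with 1490 at an unadjusted p below 0.05, while the likelihood ratio test gave 58. The count depended on the late libraries, since 431 genes differed between F3 and F1 without the libraries numbered 32 to 36, 22 of them among the 185 higher and 10 among the 52 lower genes. GABRG1 was 1 of these, with a difference of -0.65 (adjusted p = 0.0119).

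**Figure D5:**
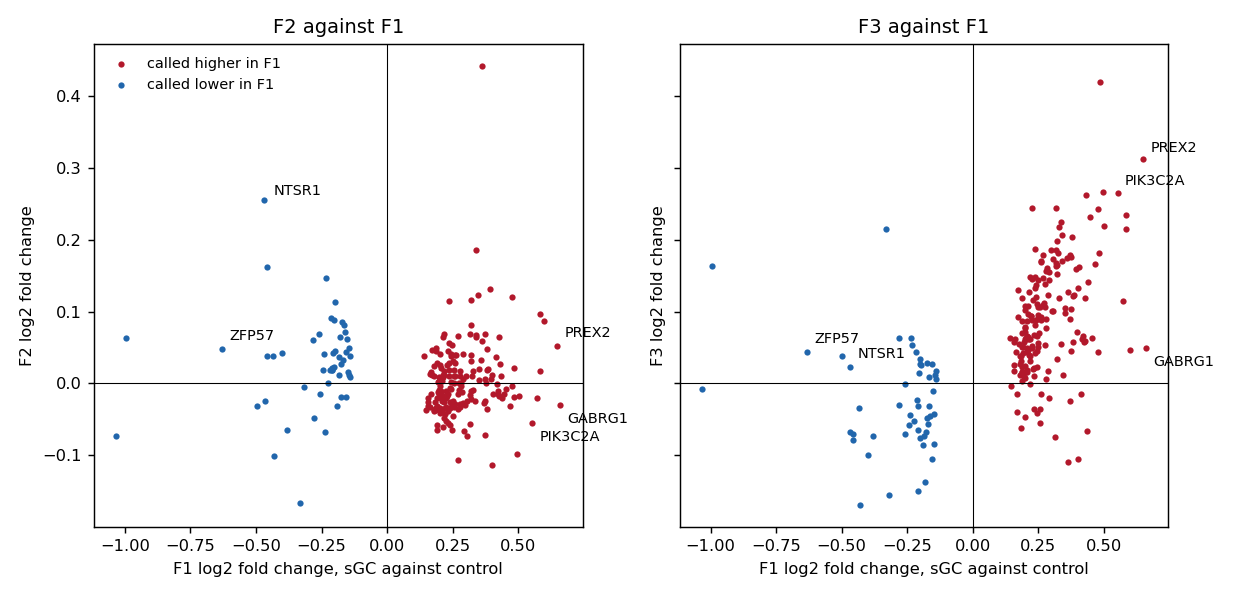
Log2 fold change of sGC against control in F2 (left) and F3 (right) plotted against that in F1 for the genes called in F1, with red points for those higher and blue points for those lower in F1. The axes leave out 1 gene called lower. Red points lie on both sides of 0 in F2, where 46.5% are above it, and mostly above 0 in F3, where 90.3% are.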

How the data were processed

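Right hippocampi of 11 F1 females were powdered, RNA (RNA integrity number of at least 7) was made into unstranded TruSeq libraries, and 51-base single reads were sequenced. The authors aligned the reads with TopHat2 and deposited the unnormalized count of reads on each gene in each library. The RNA genome build is not given in the sources used here. The same tables hold the authors' own fold changes, likelihood ratios and p-values of sGC against control, which were not used, and the methylation tables, which hold only the authors' comparisons, were not used here. Because the kit does not mark strand, reads of overlapping genes on opposite strands cannot be told apart.

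The counts were fitted in edgeR 4.0.16 (with limma 3.58.1, under R 4.3.3), and DESeq2 1.42.0 served as an alternative. Figures were drawn with Python 3.11.15 and matplotlib 3.10.9. Genes were kept by filterByExpr, libraries scaled by TMM, and sGC and control compared by the quasi-likelihood test of edgeR, with p-values adjusted over all 11377 genes after Benjamini and Hochberg and a threshold of 0.05. The filter passes a gene that is expressed in 1 group only, so counts of list members refer to members that passed it. Interactions with F2 and F3 were fitted over all 36 RNA libraries. The fits were tested on simulated counts. Of 50 genes changed 1.25-fold 74% were found, of 100 changed 1.5-fold 97%, and of 50 changed 2-fold 100%, with 15 false calls. The changed genes were drawn only from those above a set level, so genes at low levels were not covered. With totals of 14764623 to 19767033 reads, genes near 1 CPM rest on few reads and have wide errors. Groups came from the sample labels. Of the 11651 symbols, 10837 were found in the RefSeq table. Sequences, gene lengths and positions were not used here, and several genes and 1 gene list are not reported here.

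The members, the 53 gene lists, the cell type markers and the tests were chosen with earlier results of these data known. Genes named were the 12 higher and 12 lower called genes with the smallest p, the 5 higher and 5 lower called genes with the largest log2 fold change and a mean of at least 1 CPM, called members of the lists described (or, where fewer than 2 were called, the 2 members with the smallest p), and the corticosteroid receptors, FKBP5, GRIN2A, GAD1, SYP and the GABA-A subunits. Libraries were left out one at a time as alternatives, together with the likelihood ratio test, DESeq2, other size factors, no filter, all generations in 1 fit, a replicate block, and no sGC 4 and sGC 5.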

Additional observations from a re-analysis of the deposited data

Results flagged for a closer look

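Of 222 sets of 5 or 6 libraries examined (the genes named and the marker sums, in each group), 17 held a library far from the others by Dixon's criterion, where chance gives about 1 in 20. Control 5 was that library for RIMBP2 (56.3 CPM), ZFP57 (52.5 CPM), SERPINF1 (24.2 CPM), CCK (78.4 CPM), the choroid plexus sum (106 CPM) and the ependymal sum (172.8 CPM), each as the highest of the group. Control 1 was low for ARHGEF12 (127.5 CPM), control 3 high for SRSF3 (165 CPM), and control 4 high for THSD4 (6.61 CPM) and low for JUN (65.2 CPM). In the sGC group, sGC 4 was low for NRXN3 (32.2 CPM) and sGC 3 for the choroid plexus sum (66.9 CPM). Replicate sGC 1 was high for KCNJ4 (78.1 CPM), GABRA3 (74.4 CPM) and the oligodendrocyte sum (2634 CPM), and sGC 5 was high for FBXL15 (37.8 CPM) and low for SRSF3 (129.997 CPM).

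The F2 effect minus the F1 effect of sGC passed the interaction test for 13 of the genes named. These 13 had been called from F1 libraries that also enter the interaction, so their number is given as a description. The differences on the log2 scale were -0.70 for GABRG1, -0.40 for ARHGEF12, -0.61 for PIK3C2A, -0.45 for CADM2, -0.38 for RORA, -0.61 for PREX2, -0.29 for ZNF106, -0.29 for KCNA2, -0.25 for DNAJB14, -0.47 for DOCK8 and -0.28 for MYO5A. For the lower genes TMEM222 and NTSR1 they were 0.24 and 0.71.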

How the results depend on the processing

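Against the 237 genes called (185 higher, 52 lower), 598 (400 and 198) were called by the likelihood ratio test, 652 (460 and 192) by DESeq2 and 852 (595 and 257) with all generations fitted together. Leaving out 1 library gave 56 to 342 genes called, 52 to 276 higher and 4 to 72 lower, and leaving out sGC 4 and sGC 5 gave 97 (84 and 13). DESeq2's size factors in edgeR gave 242 and no filter 234. All 237 kept their sign in these fits, except for 1 gene when all generations were fitted together. The same libraries had chosen the genes, so the kept signs are only a description. The cause of the differences between tests was not tested. The replicate numbers did not pair the libraries, since only 2 of 5 same-numbered pairs deviated together (correlations from -0.072 to 0.30) and 2 of 5 sGC libraries correlated best with their own number. With a replicate block, 68 genes were called (63 higher and 5 lower).

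Genes whose effect differed between F2 and F1 numbered 33, or 168 by the likelihood ratio test and 68 without the libraries numbered 32 to 36. Between F3 and F1 the 0 genes of edgeR's quasi-likelihood test (1490 at an unadjusted p below 0.05) became 58 and 431. In alternatives added after the data were seen, the share of genes higher in F1 that lay above 0 in F2 was 22.2% without those libraries in F2 and 11.9% without them in both generations, and in F3 67.9% without them in both. The shares without them in both generations refer to the 84 genes then called higher in F1. For the 52 genes lower in F1 the share above 0 in F3 was 35.3% without them in F3. Without them in F1 a different set of 13 genes was called lower. Of these, 12 were tested in F3 without the late libraries, and 66.7% of the 12 lay above 0. Depth limits genes near 1 CPM, such as NPPC and ALAS2, and 5 sGC libraries, of which 2 carry late numbers, limit every call.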
